A study of Mus musculus with 3 samples.

Results

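The cytotoxic effector genes described here are Gzma, Gzmb, Gzmk, Prf1, Nkg7, Ifng and Fasl, chosen by name, and all 7 of them were present among the 19091 genes of 3 Drop-seq count matrices of mouse liver. Drop-seq captures single cells in droplets with barcoded beads and counts unique molecular identifiers (UMIs), so that each captured mRNA molecule is counted once. All animals were adult C57BL/6 mice. The injury was irreversible electroporation (IRE), in which electric pulses kill the cells of a confined area of a liver lobe, given according to the labels as 8 pulses of 50 ms at 75 V, while the study's methods name another voltage. The control library is labelled as sham surgery with tissue taken after 1 day, whereas the methods describe an uninjured area of liver. The other 2 libraries were made 1 day and 7 days after IRE (1 d p.i. and 7 d p.i.). In each library, digested tissue from a 4 mm punch was pooled from 3 livers according to the methods, so that there was 1 library per condition and no test across animals. Levels are given as CPM, the UMIs of a gene per 1000000 UMIs of the same cells, and all intervals are 95% intervals that cover counting error only.

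Cytotoxic lymphocytes, mainly natural killer (NK) cells and CD8 T cells, kill target cells by releasing granules. Perforin, the product of Prf1, forms pores in the target cell membrane, and granzymes, serine proteases encoded by Gzma, Gzmb and Gzmk, enter the target and cleave its proteins. The same cells carry Fas ligand (Fasl), which triggers apoptosis through Fas, secrete interferon gamma (Ifng), which activates macrophages and antigen presentation, and contain the granule membrane protein NKG7. The liver is rich in resident NK cells and innate-like T cells, in which these genes are transcribed before any injury.

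A promoter is shown for each of the 3 granzyme genes, because their levels moved apart after IRE. The 250 bases before the annotated start were taken from RefSeq on build GRCm38.p6, where all 7 genes matched an entry, and capitals mark matches to the motifs searched on both strands: RUNX (TGTGGT), NFAT (GGAAAA), AP-1 (TGANTCA), the cyclic AMP response element (TGACGTCA), a T-box half-site (GGTGTG) and TATAAA. The window of Gzma lies at chr13:113100982-113101231 and that of Gzmb at chr14:56262335-56262584, both on the minus strand. Gzmk, also on the minus strand, lies near Gzma at chr13:113180966-113181215. Each is printed 5′ to 3′ along the strand of its gene, ending at the base before the start.
Gzma: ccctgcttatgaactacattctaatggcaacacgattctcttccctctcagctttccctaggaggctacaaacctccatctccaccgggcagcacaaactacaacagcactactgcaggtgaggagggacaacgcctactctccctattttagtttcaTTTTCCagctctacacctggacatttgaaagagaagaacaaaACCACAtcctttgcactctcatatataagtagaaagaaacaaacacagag
Gzmb: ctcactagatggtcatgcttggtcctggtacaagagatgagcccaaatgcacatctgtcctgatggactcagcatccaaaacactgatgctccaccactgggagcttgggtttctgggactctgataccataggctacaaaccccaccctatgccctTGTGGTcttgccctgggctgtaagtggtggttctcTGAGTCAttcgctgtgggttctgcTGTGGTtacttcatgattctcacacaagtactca
Gzmk: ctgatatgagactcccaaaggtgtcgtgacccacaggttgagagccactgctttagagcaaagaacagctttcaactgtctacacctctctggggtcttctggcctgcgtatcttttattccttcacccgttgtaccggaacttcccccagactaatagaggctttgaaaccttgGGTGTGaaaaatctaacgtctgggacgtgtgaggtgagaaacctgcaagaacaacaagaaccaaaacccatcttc
The window of Gzma held 1 RUNX match 50 to 45 bases before the start and 1 NFAT match 92 to 87 bases before it, both on the opposite strand. That of Gzmb held 2 RUNX matches, 93 to 88 and 34 to 29 bases before the start, and the only AP-1 match of the 7 genes, 58 to 52 bases before the start. Gzmk held 1 T-box half-site, 75 to 70 bases before the start, and no RUNX match. Among all 32851 promoter windows of the same length, 14.0% held the RUNX letters, 20.4% the NFAT letters, 16.3% the T-box half-site, 6.75% the AP-1 letters, 12.4% TATAAA and 1.55% the cyclic AMP response element. No marked match overlapped another one in these windows. Such matches are descriptions of letters and not of bound sites.

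Barcodes in which 200 or more genes were detected counted as cells, namely 10386 cells in control, 9253 at 1 d p.i. and 5624 at 7 d p.i., with a median of 595, 509 and 456.5 UMIs per cell. The labels put the cDNA used at an estimated 1000 cells. Mitochondrial genes took 20.5% of the UMIs in control, 21.7% at 1 d p.i. and 4.10% at 7 d p.i. Pairs of libraries shared 44 to 149 barcodes among these cells. Each cell was gated by marker genes that do not include any of the 7 genes. A T cell had at least 2 UMIs of Cd3d, Cd3e, Cd3g, Trac, Trbc1 and Trbc2, and was called CD8 T with a UMI of Cd8a or Cd8b1 and other T without one. An NK cell had at least 2 UMIs of 10 NK genes such as Ncr1, Klrb1c and Eomes and no T UMI. Non-lymphoid barcodes had no UMI of the T, NK or B cell lists. Barcodes that met no gate, with too few of these UMIs or with UMIs of several of these lists, stayed unassigned.

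The NK gate held 203 cells in control, 56 at 1 d p.i. and 17 at 7 d p.i. The CD8 T gate held 74, 29 and 57 cells, and the other T gate 470, 312 and 79. As a share of cells, NK cells went from 1.95% in control to 0.605% and 0.302%, and other T cells from 4.53% to 3.37% and 1.40%, whereas CD8 T cells were at 0.713%, 0.313% and 1.01%. These shares depend on the gates and on depth, with a median of 606, 534.5 and 430 UMIs per NK cell. When 1 UMI opened the gates, the NK gate held 463, 307 and 59 cells of 10386, 9253 and 5624. The CD8 T gate then held 120, 64 and 74 cells. The other T gate held 1083, 1090 and 199, so that its lower share at 1 d p.i. was not seen. Single markers were sparse at this depth, and Ncr1, an activating NK receptor, was found in 20.7%, 14.3% and 23.5% of NK cells and in no CD8 T cell. Ncr1 is 1 of the 10 NK genes, and the T gates were not free of this list. An NK-list UMI was present in 115 of 544 T cells in control. It was present in 73 of 341 at 1 d p.i. and in 17 of 136 at 7 d p.i. At 7 d p.i. nearly all gated cells carried transcripts of the neutrophil list (S100a8, S100a9, Csf3r, Retnlg, Mmp9 and Cxcr2). The Neutrophil list reached 14437, 22251 and 26918 CPM in the NK, CD8 T and other T gates at 7 d p.i., against 2132, 1659 and 3278 in control, and 21707 in the B cell gate at 7 d p.i. A UMI of this list was present in 94.1% to 100% of the cells in these 4 gates at 7 d p.i. At 1 d p.i. the Hepatocyte secretory list was at 34833, 78699 and 31900 CPM in the NK, CD8 T and other T gates, against 838, 540.3 and 647 in control, and every cell of these gates had a UMI of it. The Endothelial list was also higher there, with 2244, 1998 and 2185 CPM against 375, 270 and 512 in control. Their part in the results below was not tested, and values without the gated cells that held at least 3 UMIs of a neutrophil, monocyte and macrophage, endothelial or B cell list are given where they move a result by over 1.5 times or change its direction.

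In whole libraries, the 7 genes together gave 522 CPM (507 to 539) in control, 262 (249 to 275) at 1 d p.i. and 269 (251 to 288) at 7 d p.i. The summed level was lower than in control at both times, with 0.502 times control (0.473 to 0.532) and 0.514 times control (0.477 to 0.554). These levels are relative to all UMIs of a library, and the mix of classes differed. Non-lymphoid barcodes assigned by the neutrophil list held 5.63% of all UMIs in control, 1.19% at 1 d p.i. and 77.2% at 7 d p.i. They made up 4.94%, 1.20% and 75.6% of cells, so that shares of cells are also relative to this mix. Levels with the class shares held at control are given below. Fewer cytotoxic cells and less mRNA in each of them cannot be told apart from these whole-library values.

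The 3 granzyme genes did not follow the same course. Gzma, whose product is a tryptase, was at 291 CPM in control (2329 UMIs), 98.4 at 1 d p.i. (601 UMIs) and 74.9 at 7 d p.i. (229 UMIs). It was lowest at 7 d p.i., with 0.339 times control (0.309 to 0.370) at 1 d p.i. and 0.258 times control (0.224 to 0.295) at 7 d p.i., and the 3 intervals of the level did not overlap. Gzmb, whose product cleaves after aspartate and activates caspases, was at 56.3, 40.1 and 70.6 CPM, from 451, 245 and 216 UMIs. It was lower than control at 1 d p.i. (0.713 times, 0.608 to 0.835) and higher at 7 d p.i. (1.25 times, 1.06 to 1.48), although it was 0.694 times control at 7 d p.i. (0.462 to 1.01) among cells with at least 500 genes. Gzmk was rare, with 7, 4 and 18 UMIs, or 0.873, 0.655 and 5.88 CPM. Its ratio to control at 7 d p.i. was 6.74, with a wide interval of 2.68 to 19.1.

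**Figure D1:**
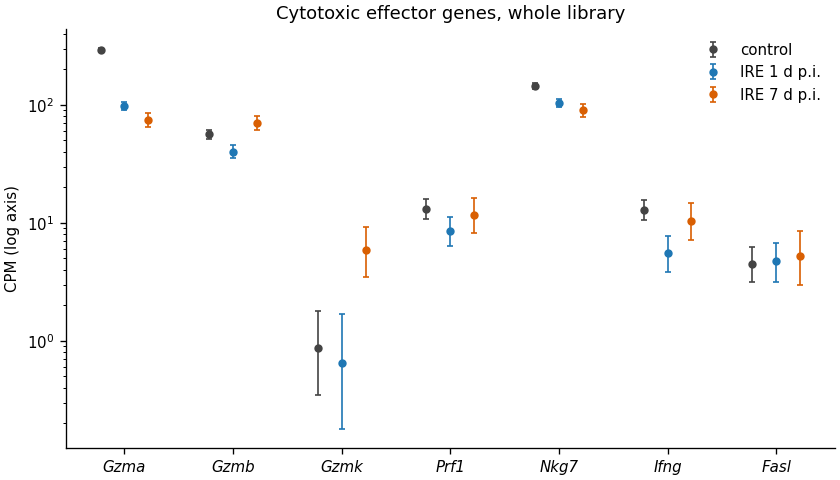
Level of each of the 7 genes in whole libraries, in CPM on a log axis. Points are the 3 libraries and bars are exact Poisson 95% intervals. Gzma is highest in control (291 CPM), whereas Gzmb and Gzmk are highest at 7 d p.i. (70.6 and 5.88).

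The pore-forming gene Prf1 was at 13.1 CPM in control, 8.51 at 1 d p.i. and 11.8 at 7 d p.i., from 105, 52 and 36 UMIs. Its level at 1 d p.i. was below control (0.650 times, 0.457 to 0.914), and the interval at 7 d p.i. included 1 (0.898 times, 0.597 to 1.32). Nkg7, needed for granule release, was at 144, 104 and 89.9 CPM, lower at 1 d p.i. (0.722 times control) and at 7 d p.i. (0.624 times, 0.545 to 0.712). The cytokine gene Ifng was at 13.0, 5.57 and 10.5 CPM, with 0.429 times control (0.282 to 0.637) at 1 d p.i. and an interval that included 1 at 7 d p.i. (0.525 to 1.21). Fasl was at 4.49, 4.75 and 5.23 CPM, from 36, 29 and 16 UMIs, and its ratios to control of 1.06 (0.625 to 1.77) and 1.16 (0.603 to 2.15) left changes within these ranges undetectable at this depth.

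A gene was called higher or lower when its CPM differed by more than 2-fold, among genes with at least 20 UMIs in both libraries together. At 1 d p.i. 6 of the 7 genes reached this minimum, and 2 of them, Gzma and Ifng, were lower, against 7.14% of the 12988 genes tested, while none was higher, against 13.6%. The median log2 ratio was -0.56 over these 6 genes and 0.05 over all genes tested. All 7 genes reached the minimum at 7 d p.i., where Gzma was the 1 gene lower and Gzmk the 1 gene higher, against 26.3% of all 12074 genes lower and 8.79% higher. The medians were -0.15 for the 7 genes and -0.29 for all genes.

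The classes that held these UMIs were then compared. In control, gated NK and T cells made up 7.98% of all UMIs and held 50.1% (2096 of 4187) of the UMIs of the 7 genes, of which the NK gate held 26.5%, the CD8 T gate 7.48% and the other T gate 16.1%. At 1 d p.i. the 3 gates held 28.2% (451 of 1601), with 8.0% in the NK gate. This share depended on the gates, with 59.5% when 1 UMI opened them and 14.2% when 3 were needed, against 79.2% and 32.3% in control. By 7 d p.i. they held 53.9% (443 of 822), and the CD8 T gate alone held 24.6%, more than the NK gate with 9.25%. Non-lymphoid barcodes held 19.9%, 36.5% and 24.2%. This class is set by the lack of a captured T, NK or B cell UMI, so that it can hold lymphocytes whose marker UMIs were missed. Unassigned barcodes held 29.7%, 34.4% and 21.9%. Removing gated cells with at least 3 UMIs of a neutrophil, monocyte and macrophage, endothelial or B cell list lowered the gated share at 7 d p.i. to 14.1%, because it left 3 NK, 9 CD8 T and 11 other T cells.

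**Figure D2:**
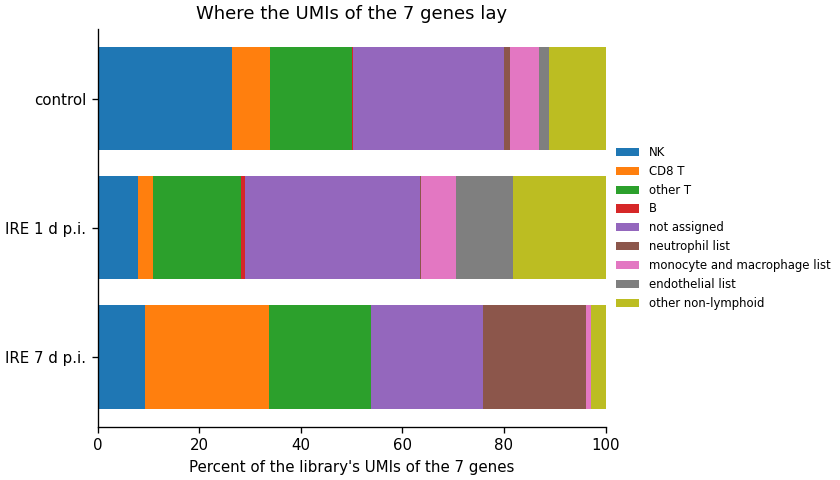
Share of the UMIs of the 7 genes in each class of barcodes, in percent of the UMIs of these genes in the library. The NK gate shrinks from 26.5% in control to 8.0% and 9.25%, and the CD8 T gate grows to 24.6% at 7 d p.i.

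To separate the mix of classes from the level within them, the level of each class was combined with the share of UMIs that the class had in control. With these fixed shares, the 7 genes together would have been at 0.561 times control at 1 d p.i., close to the 0.502 observed, but at 1.28 times control at 7 d p.i., against 0.514 observed. For Gzma the fixed shares gave 0.403 and 0.738 times control. Those of Gzmb gave 0.757 and 2.94 times control, and those of Prf1 0.691 and 3.01 times. These values have no interval, and at 7 d p.i. they give control weights to small classes. Among these were 17 NK cells and 24 endothelial-list cells with 0 UMIs of the 7 genes, and Prf1 rested on 36 UMIs in all. They also share the dependence of the gate levels on filters and denominators that is given below.

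In the NK gate, the 7 genes together were at 7440 CPM in control, 3502 at 1 d p.i. and 8188 at 7 d p.i., from 1110, 128 and 76 UMIs. The level at 1 d p.i. was 0.471 times control (0.389 to 0.566), and that at 7 d p.i. did not differ from control beyond its interval (1.10 times, 0.860 to 1.39). The latter value was unstable, with 1.91 times control (1.14 to 3.0) without gated cells that carried markers of other lineages, on 3 cells, and 0.710 times (0.384 to 1.21) among cells with at least 500 genes. Gzma was at 4954, 2189 and 3232 CPM and was below control at both times, with 0.442 times (0.346 to 0.557) and 0.652 times (0.437 to 0.940). With every deposited barcode included, Gzma at 7 d p.i. was 1.06 times control (0.799 to 1.37), so that its direction rests on the barcode filter. Gzmb was at 429, 383 and 1508 CPM. Its interval at 1 d p.i. included 1 (0.462 to 1.61), and at 7 d p.i. it was 3.52 times control (1.82 to 6.34) on 14 UMIs in 17 cells. It stayed above control per UMI of the NK list (2.41 times, 1.25 to 4.35). Prf1 was at 302, 164 and 754 CPM, and the ratio to control of 2.5 at 7 d p.i. had an interval of 0.951 to 5.59. Nkg7 was lower at 1 d p.i. (0.467 times, 0.301 to 0.697), with 1582, 739 and 2262 CPM in the 3 libraries. Ifng gave 17, 1 and 2 UMIs, Fasl 9, 0 and 1, and Gzmk 0, 0 and 1. Of 4 genes with enough UMIs in this gate, 2 were more than 2-fold lower at 1 d p.i. (Gzma and Nkg7), against 22.4% of all genes, and 2 more than 2-fold higher at 7 d p.i. (Gzmb and Prf1), against 25.5%.

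In the CD8 T gate, the 7 genes together were at 4026, 1459 and 6217 CPM. The sum was 0.362 times control (0.260 to 0.495) at 1 d p.i. and 1.54 times (1.29 to 1.85) at 7 d p.i., but the second ratio was 0.905 among cells with at least 500 genes and 0.693 per UMI of the T list. Gzma was at 2534 CPM in control (197 UMIs in 74 cells), 159 at 1 d p.i. (5 UMIs in 29 cells) and 1077 at 7 d p.i. (35 UMIs in 57 cells). These are 0.0626 times control (0.0201 to 0.149) at 1 d p.i. and 0.425 times (0.288 to 0.611) at 7 d p.i. A single CD8 T cell of control held up to 43 UMIs of the 7 genes, and without the 5% of barcodes with most UMIs the ratio of Gzma at 7 d p.i. was 0.647 (0.415 to 0.985). Gzmb moved the other way between control and 7 d p.i., with 579, 317 and 2185 CPM, or 45, 10 and 71 UMIs. It reached 3.77 times control (2.56 to 5.61) at 7 d p.i., and 1.70 times (1.15 to 2.52) when UMIs of the T list were used in place of all UMIs as the denominator. Without gated cells that carried markers of other lineages it was 3.78 times control (1.52 to 8.61), on 9 UMIs, and among cells with at least 500 genes 1.82 times (0.864 to 3.55).

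Prf1 was not seen in CD8 T cells of control or of 1 d p.i., where 3 UMIs would be 38.6 and 95.2 CPM. It gave 7 UMIs (215 CPM) at 7 d p.i., 5.58 times the level of 3 UMIs in control, without an interval. Nkg7 was at 785, 856 and 2031 CPM, with 2.59 times control (1.80 to 3.73) at 7 d p.i., but 1.16 times (0.808 to 1.67) per UMI of the T list and 1.10 times (0.340 to 2.79) without gated cells that carried markers of other lineages. Gzmk gave 3, 1 and 7 UMIs, Ifng 4, 3 and 10, and Fasl 3, 0 and 6. Their ratios to control at 7 d p.i. were 5.58 (1.27 to 33.5), 5.98 (1.73 to 26.1) and 4.79 (1.02 to 29.6). These ratios use all UMIs as the denominator, and the T list itself was also higher in this gate at 7 d p.i., as given below. Of 3 genes with enough UMIs, 1 was lower at 1 d p.i. (Gzma), against 28.8% of all genes. Of the same genes 2 were higher at 7 d p.i. (Gzmb and Nkg7), against 15.2%, and 1 was lower (Gzma), against 13.4%.

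The other T gate can hold CD4 T cells, innate-like T cells and also CD8 T cells in which no Cd8 UMI was captured. Its cells had a median of 692.5, 560.5 and 416 UMIs. They carried the 7 genes at 1632 CPM in control, 1121 at 1 d p.i. and 4101 at 7 d p.i. The summed level was 0.687 times control (0.595 to 0.791) at 1 d p.i. and 2.51 times (2.11 to 2.98) at 7 d p.i. Without the gated cells that carried markers of other lineages, the first ratio was 1.01, so that the lower level at 1 d p.i. was not seen without them. It was 0.347 times control among cells with at least 500 genes, 0.413 times when 1 UMI opened the gates and 0.418 times with at most 20% mitochondrial UMIs. The ratio at 7 d p.i. was 1.47 (1.28 to 1.67) when 1 UMI opened the gates and 1.42 (1.19 to 1.69) per UMI of the T list. Gzmb was at 352, 194 and 1193 CPM, 0.552 times control (0.390 to 0.770) and then 3.39 times (2.40 to 4.73). Per UMI of the T list the latter was 1.92 times (1.35 to 2.68), and without gated cells that carried markers of other lineages it rested on 2 UMIs (1.44 times, 0.171 to 5.32). Among cells with at least 500 genes it was 1.91 times control (0.844 to 3.78). Unlike in the other 2 gates, Gzma was above control at 7 d p.i., with 596, 324 and 1019 CPM and 1.71 times control (1.20 to 2.39). This direction did not hold when 1 UMI was enough to open the gates (0.816 times) or per UMI of the T list (0.966 times). Nkg7 was at 550.4, 542 and 1367 CPM and 2.48 times control (1.82 to 3.35) at 7 d p.i., but 1.40 times per UMI of the T list. Prf1 gave 8, 2 and 9 UMIs, with 11.5 times control (3.95 to 34.4) at 7 d p.i. These 9 UMIs lay in 4 of 79 cells, which the interval does not take into account. Ifng was lower at 1 d p.i. (0.334 times, 0.125 to 0.762), from 35 and 7 UMIs. Of 4 genes with enough UMIs, 1 was more than 2-fold lower at 1 d p.i. (Ifng), against 11.7% of all genes, and 2 were higher at 7 d p.i. (Gzmb and Nkg7), against 15.4%.

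**Figure D3:**
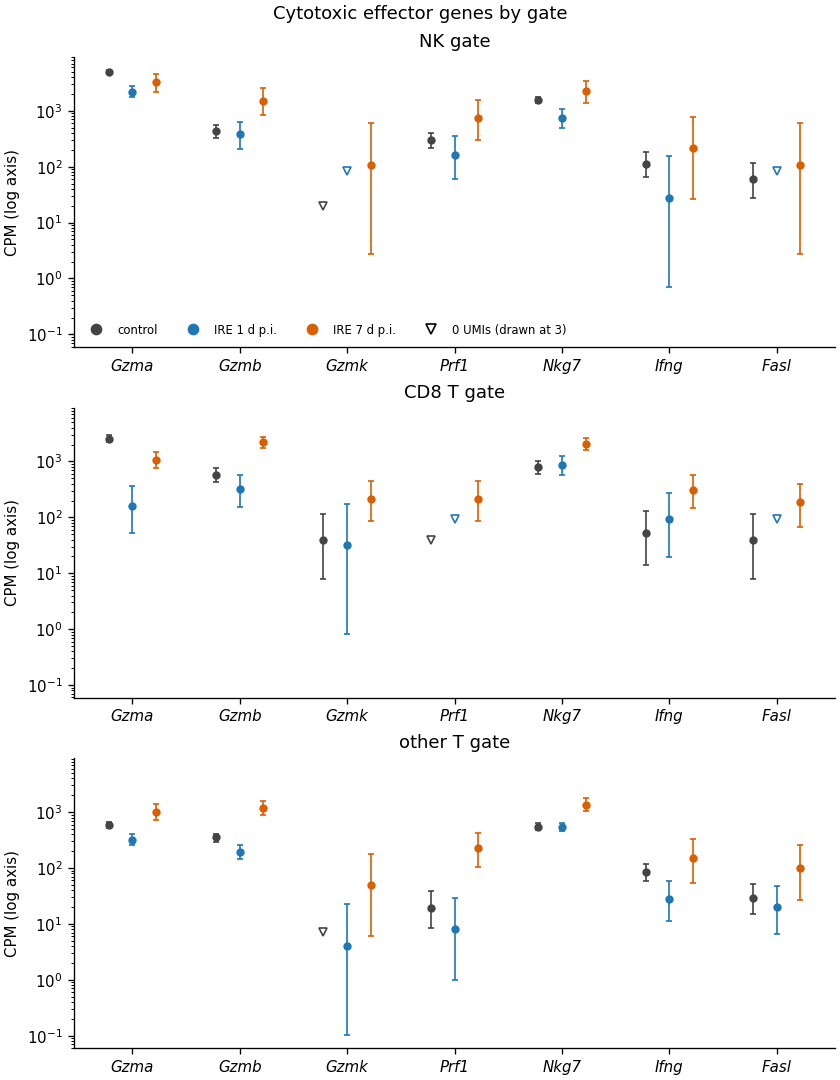
Level of each of the 7 genes in the NK, CD8 T and other T gates, in CPM on a log axis. Points are the 3 libraries with exact Poisson 95% intervals, and open triangles stand for 0 UMIs, drawn at 3 counts. Gzmb is highest at 7 d p.i. in all 3 gates (1508, 2185 and 1193 CPM), whereas Gzma is highest in control in the NK and CD8 T gates.

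NK cells had the highest level of Gzma in all 3 libraries. In control it went from NK (4954) to CD8 T (2534) and other T cells (596), with intervals that did not overlap, whereas CD8 T (1077) and other T cells (1019) did not differ beyond their intervals at 7 d p.i. For Gzmb, CD8 T cells and NK cells did not differ beyond their intervals in any of the 3 libraries. All 3 gates lay above non-lymphoid barcodes, in which Gzmb was at 10.1, 19.3 and 15.1 CPM and Gzma at 65.2, 48.6 and 19.3. In the B cell gate all 7 genes together gave 11, 15 and 0 UMIs, or 112 and 151 CPM in control and at 1 d p.i. At 7 d p.i. they gave 0 of 9398 UMIs, where 3 UMIs would be 319 CPM.

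Over the NK and T gates together, 6 of the 7 genes had at least 20 UMIs. At 1 d p.i. 4 of them were more than 2-fold lower (Gzma, Prf1, Ifng and Fasl), against 11.3% of 5882 genes, and none was higher, against 13.7%. Fasl was at 0.423 times control, with an interval (0.126 to 1.13) that included 1. By 7 d p.i. 5 were more than 2-fold higher (Gzmb, Prf1, Nkg7, Ifng and Fasl), against 13.2% of 4661 genes, and none was lower, against 13.5%. The median log2 ratio of the 6 genes was -1.29 at 1 d p.i. and 1.54 at 7 d p.i., compared with -0.08 and 0.07 over all genes tested. Gzmk, with 3, 2 and 10 UMIs, did not reach the minimum. The mix of the gates differed between libraries, with 203 NK cells of 747 in control, 56 of 397 at 1 d p.i. and 17 of 153 at 7 d p.i. CD8 T cells were 74, 29 and 57 of these cells. In the NK gate alone, Prf1 was not called lower at 1 d p.i. The part of the mix in the calls over these gates was not tested. The T list itself was also higher at 7 d p.i., with 7448 CPM against 3344 CPM in the CD8 T gate, at a median of 523 against 747.5 UMIs per cell, and with 6065 CPM against 3428 CPM in the other T gate.

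The ratio of Gzma to Gzmb UMIs is free of the denominator and was read only between libraries. In whole libraries there were 5.16 Gzma UMIs per Gzmb UMI in control (4.67 to 5.72), 2.45 at 1 d p.i. (2.11 to 2.86) and 1.06 at 7 d p.i. (0.876 to 1.28). Under 6 other choices of barcodes the range was 4.23 to 5.44 in control, 2.35 to 3.02 at 1 d p.i. and 0.799 to 1.25 at 7 d p.i., so that the order of the 3 libraries stood under each. In NK cells the ratio was 11.5, 5.71 and 2.14, with intervals of 8.94 to 15.2 in control and 1.10 to 4.37 at 7 d p.i. CD8 T cells were at 4.38 in control, 0.500 at 1 d p.i. and 0.493 at 7 d p.i., and the interval of 3.15 to 6.20 in control did not overlap those of the injured livers. For other T cells the ratio was 1.70, 1.67 and 0.854, and these intervals overlapped between control (1.38 to 2.10) and 1 d p.i. but not between control and 7 d p.i. (0.549 to 1.32). Non-lymphoid barcodes followed the same order, with 6.44, 2.52 and 1.28.

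**Figure D4:**
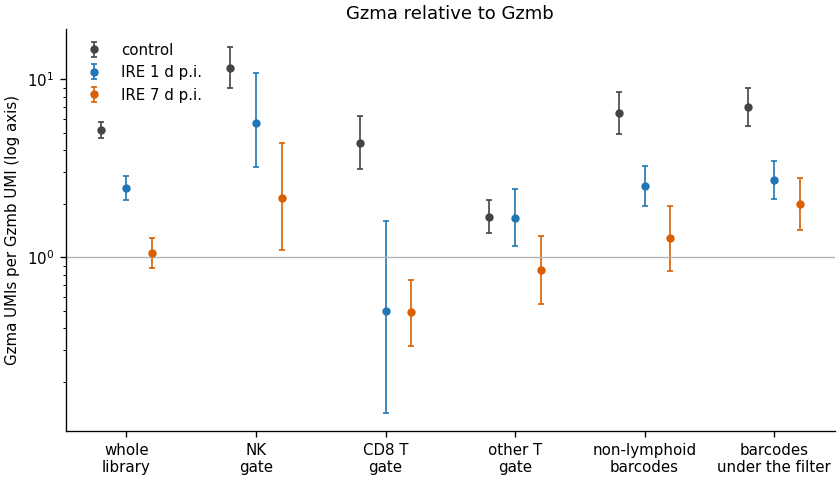
Gzma UMIs per Gzmb UMI in whole libraries, in the 3 gates, in non-lymphoid barcodes and in barcodes under the filter of 200 genes, on a log axis. Points are the 3 libraries, bars are 95% intervals and the grey line marks equal counts. In whole libraries the ratio is 5.16 in control and 1.06 at 7 d p.i.

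The pairing of Gzma and Gzmb was read in single cells that were not thinned. In control, 16 of the 17 CD8 T cells with a Gzmb UMI also had a Gzma UMI (94.1%), whereas at 7 d p.i. this held for 11 of 30 (36.7%), at a median depth of 747.5 and 523 UMIs. Among all CD8 T cells, Gzma was in 26 of 74 in control and 18 of 57 at 7 d p.i. If the 2 genes were placed independently, 5.97 and 9.47 cells with both would be expected, against 16 and 11 seen. CD8 T cells with Gzmb and no Gzma made up 1.35% of the gate in control and 33.3% at 7 d p.i. Among other T cells they made up 9.15% and 22.8%. In NK cells, Gzma was present in 36 of 44 cells with Gzmb in control (81.8%) and in 6 of 7 at 7 d p.i. (85.7%). Among all NK cells it was in 155 of 203 and 12 of 17, so that 33.6 and 4.94 cells with both would be expected. NK cells were mostly Gzma only in control (58.6%), with 17.7% carrying both, compared with 35.3% and 35.3% of the 17 cells at 7 d p.i. All 33 NK cells of control with a Prf1 UMI also had Gzma. A UMI of 3 or more of the 7 genes was found in 27.1% of NK cells in control, 1.79% at 1 d p.i. and 47.1% at 7 d p.i.

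**Figure D5:**
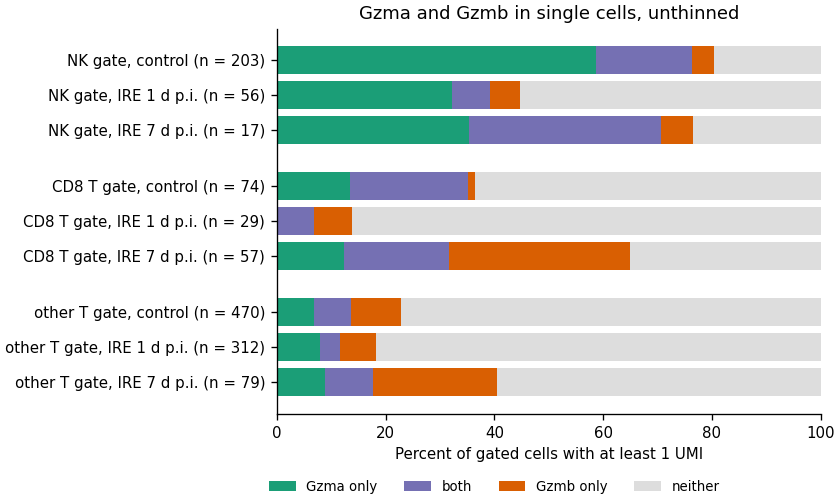
Share of gated cells with UMIs of Gzma only, of both genes, of Gzmb only or of neither, in percent of the cells in each gate and library. Cells were not thinned, so that the shares depend on depth. The part with Gzmb only in the CD8 T gate grows from 1.35% in control to 33.3% at 7 d p.i.

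Shares of cells depend on depth, so that each cell was also thinned to 300 UMIs, which left out 3, 2 and 2 NK cells, 0, 0 and 2 CD8 T cells and 2, 7 and 16 other T cells. The share of CD8 T cells with a Gzmb UMI was 23.0%, 13.8% and 52.6% before thinning and 10.8%, 6.90% and 40.0% after it (intervals of 4.78% to 20.2% in control and 27.0% to 54.1% at 7 d p.i.). For Gzma in NK cells the thinned share was 63.5% (56.4% to 70.2%) in control, 31.5% (19.5% to 45.6%) at 1 d p.i. and 60.0% (32.3% to 83.7%) at 7 d p.i. Any of the 7 genes was seen after thinning in 45.9% of CD8 T cells in control, 31.0% at 1 d p.i. and 78.2% at 7 d p.i., and in 26.7%, 25.9% and 42.9% of other T cells. In endothelial-list barcodes, which should lack these genes, the thinned share was 2.98% in control (34 of 1141) and 3.27% at 1 d p.i. (75 of 2292), with median depths of 546 and 528 UMIs, and it was 1.62% in the 3951 neutrophil-list barcodes at 7 d p.i., with a median of 471 UMIs. For Gzmb alone these shares were 0.0876%, 0.654% and 0.405%.

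Members of the wider pathway were read in the NK and T gates together, where 11.3% of all genes tested were more than 2-fold lower and 13.7% higher at 1 d p.i., and 13.5% lower and 13.2% higher at 7 d p.i. The mix of NK and T cells in these gates differed between libraries, as given above, and its part was not tested. Of 9 genes for granule maturation and release, 8 could be tested. At 1 d p.i. 2 of them, Rab27a and Unc13d, which dock and prime granules, were more than 2-fold lower (0.270 and 0.265 times control), against 11.3% of all genes. Of the same list 2 were higher at 7 d p.i., Srgn, the proteoglycan on which granzymes are stored, with 7.26 times control (6.25 to 8.42), and Cst7, an inhibitor of granule cathepsins, with 2.32 times (1.07 to 4.64), and 1 was lower (Unc13d, on 2 UMIs), against 13.2% and 13.5% of all genes. Srgn was at 9707 CPM in neutrophil-list barcodes at 7 d p.i. and at 4256 in the gates. Of 6 serine protease inhibitors 4 were tested, and Serpinb9, which blocks granzyme B, was at 0.350 times control at 1 d p.i. (0.159 to 0.690) and 2.69 times (1.53 to 4.54) at 7 d p.i., the same order as Gzmb. In all, 2 of these 4 were lower at 1 d p.i. (Serpinb9 and Serpinb6b), and 2 were higher (Serpinb9 and Serpinb6b) and 2 lower (Serpina3g and Serpinb6a, on 2 and 3 UMIs) at 7 d p.i., with the same shares of all genes as background.

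Of 8 transcription factors 7 were tested, and 2 were lower at 1 d p.i., Eomes at 0.196 times control (0.0694 to 0.452) and Runx3 at 0.290 times (0.119 to 0.611), both drivers of cytotoxic fate, against 11.3% of all genes. Eomes is also a gene of the NK gate. One was higher at 7 d p.i., Bhlhe40 with 3.0 times control (1.29 to 6.43), against 13.2% of all genes. Among 10 cytokine and receptor genes 4 were tested, and the receptor genes Il18r1, Il18rap and Il2ra were lower at 1 d p.i., at 0.217, 0.175 and 0.338 times control, against 11.3% of all genes, while Il18rap was 2.29 times control (1.25 to 3.98) at 7 d p.i. Of 7 effector ligands and chemokines 6 were tested. None was lower at 1 d p.i., and at 7 d p.i. 4 were higher and 1 lower (Tnfsf10, on 1 UMI), against 13.2% and 13.5% of all genes. The chemokine genes Ccl5, Ccl3 and Ccl4 were 3.36, 3.74 and 5.05 times control at 7 d p.i., and Ccl3 and Ccl4 were also at 644 and 1072 CPM in neutrophil-list barcodes there, against 293 and 427 in the gates. Tigit, the 1 inhibitory receptor of 5 that could be tested, was 3.12 times control (1.19 to 7.39) at 7 d p.i.

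Receptors of the ligands gave 3 genes tested at 1 d p.i., with no gene past 2-fold. At 7 d p.i. 2 were tested, with Ifngr1 higher (2.32 times, 1.66 to 3.20), against 13.2% of all genes. Gzmc was the 1 other granzyme that could be tested, with 22, 3 and 0 UMIs. Of the 7 other granzyme genes listed, 3 were among the genes of the count matrices, and no level is given for Gzmd, Gzmf, Gzmg and Gzmn. Of 5 genes of cell division, 4 were more than 2-fold lower at 1 d p.i. and 3 at 7 d p.i., against 11.3% and 13.5% of all genes, with Mki67 at 0.215 and 0.271 times control and Top2a at 0.163 and 0.327 times. Of 9 interferon gamma targets, read in whole libraries, 8 were tested, with 1 lower at 1 d p.i. (Gbp2, 0.369 times control), against 7.14% of all genes there. At 7 d p.i. 4 were lower and 1 higher, against 26.3% and 8.79% of all genes, with Cxcl9 at 0.0901 times control (0.0706 to 0.113) and Cxcl10 at 4.16 times (3.75 to 4.60).

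The genes most like the summed 7 genes over 8 classes in 3 libraries, among 11253 genes with at least 50 UMIs, were Ms4a4b (r = 0.969), Ccl5 (0.962), Klrd1 (0.941), Ctsw (0.932) and Cst7 (0.931), by Pearson's r of log2(CPM + 10) over 24 points that share libraries and depth. Klrd1, a subunit of an NK cell receptor, was nearest to Gzma (0.954), and Ms4a4b, a T cell membrane gene, was nearest to Gzmb (0.971) and to Nkg7 (0.971). Ifng was nearest to Cd247 (0.965), the zeta chain of the T cell receptor complex, and Prf1 to Klrk1 (0.825). Between the members, r was highest for Gzmb with Nkg7 (0.967) and lowest for Prf1 with Nkg7 (0.749).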

How the data were processed

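Liver cells of 1 control library and of 1 library each at 1 d p.i. and 7 d p.i. were profiled by Drop-seq. The authors aligned reads with STAR (version 2.5.2a in the submitters' processing notes, which list a human genome build for these mouse data, so that no gene coordinates were taken from the files) and deposited UMI counts per gene and barcode, not normalized. The file headers name a minimum of 200 genes per barcode, which barcodes with as few as 11 genes do not meet, and it was applied here. The libraries held 10032574, 8563287 and 4580021 UMIs in 15704, 18161 and 12466 barcodes. Deposited counts of reads and genes per barcode gave depth only.

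UMIs were summed per library and gate and divided by all UMIs there (CPM). Levels have exact Poisson intervals, shares exact binomial (Clopper-Pearson) intervals and ratios conditional binomial intervals, at 95%. A count of 0 UMIs in a ratio was replaced by 3, without an interval, and pairs of counts of 3 or fewer gave no ratio. Doublets were not called, and cells with markers of other lineages were removed as an alternative. The fold calls were tested on simulated counts. The 7 genes, marker lists and pathway lists were chosen with earlier results of these data known, and no list was tested. Up to 3 genes per pathway list with the largest ratios were named. Alternatives were other barcode filters, denominators, gates and fold settings. Python 3.11.15, numpy 2.4.6, scipy 1.17.1 and pandas 2.3.3 were used.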

Additional observations from a re-analysis of the deposited data

Results flagged for a closer look

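Gzma at 7 d p.i. relative to control lay on different sides of 1 in the gates. It was 1.71 times control in the other T gate, 0.652 times in the NK gate and 0.425 times in the CD8 T gate, and each interval left out 1. The difference itself was not tested, since there was 1 library per condition. The direction was not stable, since with every barcode the NK gate was at 1.06 times control (0.799 to 1.37), and the other T gate was at 0.816 times when 1 UMI opened the gates and at 0.966 times per UMI of the T list.

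Barcodes under 200 genes, which were left out of the levels reported for cells, carried Gzmk at 11.9 times the control level at 7 d p.i. (9 UMIs against 1). The interval of this ratio was 1.66 to 524.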

How the results depend on the processing

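The alternatives required 300 or 500 genes per barcode or none, at most 20% mitochondrial UMIs, left out the 5% of barcodes with most UMIs, left mitochondrial, haemoglobin and hepatocyte genes out of the denominator (reduced denominator), opened gates with 1 or 3 UMIs, used only Cd3 genes as the T list, or left out gated cells with markers of another lineage (mixed cells). Removing barcodes shared between libraries and dividing by UMIs of the gate's own list were added after seeing the data. With 1 library per condition, a value counted as moved when it left the counting interval of the reported one. Of 501 values of single genes and of Gzma per Gzmb, 417 stayed within it, 80 moved and 4 changed side of 1, which was counted only where the reported interval left out 1. Of 173 sums, shares and counts of genes, 76 stayed, 94 moved and 3 changed side. The cause was not tested.

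The summed level over control was moved as follows. At 1 d p.i. the whole library was at 0.46 at 300 genes, 0.41 at 500 genes, 0.405 at 20% mitochondrial UMIs, 0.532 with the reduced denominator and 0.537 without shared barcodes. NK cells at that time were at 0.372 at 300 genes, 0.323 at 500 genes, 0.341 at 20% mitochondrial UMIs, 0.35 with 1 gate UMI, 0.578 with 3 gate UMIs and 0.606 without mixed cells. CD8 T cells were at 0.503 without the deepest 5% and 0.512 without shared barcodes. Other T cells were at 0.554 at 300 genes, 0.347 at 500 genes, 0.418 at 20% mitochondrial UMIs, 0.838 without the deepest 5%, 0.413 with 1 gate UMI, 0.807 with Cd3 genes only, 1.01 without mixed cells and 0.831 without shared barcodes. At 7 d p.i. the whole library was at 0.368 at 500 genes, 0.581 at 20% mitochondrial UMIs and 0.425 with the reduced denominator. NK cells were then at 1.4 with every barcode, 0.71 at 500 genes, 1.91 without mixed cells and 0.755 per list UMI, around a reported interval that included 1. For CD8 T cells the values were 0.905 at 500 genes, 2.04 without the deepest 5%, 1.27 with 3 gate UMIs, 1.22 with Cd3 genes only, 1.2 without mixed cells and 0.693 per list UMI, of which the first and the last fell below 1. For other T cells they were 2.11 at 500 genes, 2.1 with the reduced denominator, 1.47 with 1 gate UMI, 3.08 with 3 gate UMIs and 1.42 per list UMI. Gzma over control at 7 d p.i. turned to 1.06 with every barcode in NK cells, and to 0.816 with 1 gate UMI and 0.966 per list UMI in other T cells, and Gzmb in the whole library to 0.694 at 500 genes.

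The share of the 7 genes' UMIs in the NK and T gates was in control 45.4% with every barcode, 55.8% at 300 genes, 59.6% at 500 genes, 53.8% at 20% mitochondrial UMIs, 47.6% without the deepest 5%, 79.2% with 1 gate UMI, 32.3% with 3 gate UMIs, 45.2% with Cd3 genes only and 40.8% without mixed cells, at 1 d p.i. 22.1% with every barcode, 31.4% at 300 genes, 59.5% with 1 gate UMI, 14.2% with 3 gate UMIs, 18.1% with Cd3 genes only and 22.5% without mixed cells, and at 7 d p.i. 47.2% with every barcode, 66.9% at 300 genes, 68.9% at 500 genes, 75.7% with 1 gate UMI, 39.1% with 3 gate UMIs, 37.1% with Cd3 genes only and 14.1% without mixed cells. In non-lymphoid barcodes it was in control 24.3% with every barcode, 18.6% at 300 genes, 16% at 500 genes, 27.1% with Cd3 genes only and 23.6% without mixed cells, at 1 d p.i. 43% with every barcode, 33.3% at 300 genes, 33.2% at 500 genes, 39.7% at 20% mitochondrial UMIs, 48.8% with Cd3 genes only and 39.4% without mixed cells, and at 7 d p.i. 29.2% with every barcode, 17.7% at 300 genes, 36.1% with Cd3 genes only and 45.1% without mixed cells.

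Thinned to 300 UMIs, any of the 7 genes was found in 77% and 53.7% of NK cells in control and at 1 d p.i., in 45.9% and 78.2% of CD8 T cells in control and at 7 d p.i., and in 26.7%, 25.9% and 42.9% of other T cells. Genes past the fold in whole libraries numbered 2696 and 4240 at 2-fold and 1479 and 2524 at 3-fold. In the NK gate they numbered 430 at 1 d p.i. and 384 at 7 d p.i. with a minimum of 20 UMIs, 988 and 1213 with 10, and 112 and 101 with 50. In the CD8 T gate they numbered 307 at 1 d p.i. and 239 at 7 d p.i. with a minimum of 20 UMIs, 703 and 628 with 10, and 84 and 77 with 50. In the other T gate they numbered 1161 at 1 d p.i. and 1020 at 7 d p.i. with a minimum of 20 UMIs, 2259 and 2026 with 10, and 395 and 342 with 50. No paired analysis was possible because each condition had 1 pooled library. Depth limits Gzmk, Fasl, Ifng and Prf1 in single gates, where many values rest on fewer than 10 UMIs.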

Other observations

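In barcodes under 200 genes, the 7 genes together were at 477 CPM in control, 237 at 1 d p.i. and 204 at 7 d p.i., and Gzma UMIs per Gzmb UMI were 6.96, 2.72 and 1.98. T cells with at least 1 UMI of the NK list, a class that can hold innate-like T cells and doublets, carried the 7 genes at 3635 CPM in control, 2123 at 1 d p.i. and 7672 at 7 d p.i., compared with 1518, 885 and 4555 in T cells without such a UMI. Those with an NK-list UMI held 415 of the 986 UMIs of the 7 genes in the T gates of control. These counts were 131 of 323 at 1 d p.i. and 88 of 367 at 7 d p.i. Non-lymphoid barcodes with a Gzma UMI numbered 258 of 8257 in control, of which 5 had a UMI of a plasmacytoid dendritic cell gene and 0 a UMI of a mast cell or basophil gene. Of these 258 barcodes, 53 had 3 or more UMIs of the 7 genes.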
